A study of Mus musculus with 12 samples.

Results

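The family of miR-148 and miR-152 comprised 3 miRNAs on the array, mmu-miR-148a, mmu-miR-148b and mmu-miR-152, found by name among the 1096 miRNA names of the deposited table, with names that end in a star left out. The family was chosen by a measured value, the fall of miR-148a in cofilin-2 deficient muscle, which was the largest among the miRNAs fitted, so the difference between genotypes is given here as a description and carries no test for the members. The array was run on quadriceps from 6 mice without cofilin-2 (KO, genotype cofilin-2 null, KO1 to KO6) and 6 wildtype littermates (WT1 to WT6), all of strain C57Bl/6 and all at postnatal day 7. The labels name no treatment, and animals lacking cofilin-2 have a muscle disease of early onset and were sampled close to the end of their short lives. Each mouse gave a separate sample. All WT samples were labelled with Cy5 and all KO samples with Cy3, so that dye and genotype cannot be told apart for any value below. Intensities had been normalized by the authors and are relative brightness with no unit.

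MicroRNAs are short RNAs that guide the Argonaute protein to messenger RNAs, which they hold down by pairing through a stretch near their 5′ end called the seed. This family is known for holding down Dnmt1, the enzyme that maintains DNA methylation, and miR-148a is known to lower the LDL receptor in liver. In cultured myoblasts miR-148a has been reported to promote differentiation by targeting Rock1, a kinase that activates LIM kinase, which in turn phosphorylates cofilin.

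The mature sequences show what joins the family and how little separates its members. All matched an entry in the RefSeq sequences of build GRCm38.p6, where each is the 3p arm of its hairpin. The capitals mark the seed, bases 2 to 8.
miR-148a: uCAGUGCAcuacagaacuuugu
miR-148b: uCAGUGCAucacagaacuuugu
miR-152: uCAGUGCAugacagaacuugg

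Positions are counted from 1 at the 5′ end. miR-148a and miR-148b share 20 of 22 bases and differ by C9U and U10C, with the base of miR-148a written before the position. miR-148a and miR-152 share 18 of the 21 bases compared and differ by C9U, U10G and U20G. miR-148b and miR-152 share 19 of 21 and differ by C10G and U20G. The probes on the array were not examined, and how far a probe for one member also binds the others was not tested. The seed CAGUGCA stood at bases 2 to 8 in 3 of 1679 mature mouse miRNAs searched, which are these members.

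The hairpins come from separate loci, and they are shown because the array also measured their other arm. The capitals mark the mature miRNA above. Mir148a lies at chr6:51269812-51269910 on the minus strand within Gm38821, Mir148b at chr15:103285125-103285221 on the plus strand within Copz1, and Mir152 at chr11:96850393-96850465 on the plus strand within Copz2, in the RefSeq annotation of GRCm38.p6. Copz1 and Copz2 encode the alternative zeta subunits of the COPI coat, which carries vesicles from the Golgi. The annotation had 0 other miRNA genes within 10 kb of each hairpin.
Mir148a: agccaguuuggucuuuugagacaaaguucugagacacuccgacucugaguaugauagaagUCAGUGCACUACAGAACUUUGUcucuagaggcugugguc
Mir148b: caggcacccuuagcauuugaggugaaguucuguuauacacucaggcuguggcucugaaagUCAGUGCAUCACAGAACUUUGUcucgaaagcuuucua
Mir152: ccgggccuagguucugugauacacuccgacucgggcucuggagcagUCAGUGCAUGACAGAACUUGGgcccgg

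The samples had been brought to nearly the same level, with summed intensities of 594311 to 636136 over the 12 samples. Within a sample, the median intensity over all names was 12 to 14, which serves below as a mark for dim probes. Genotypes were compared with limma on log2 intensities over the 370 miRNAs whose intensity averaged 32 or more. KO1 stood apart from the other KO samples, with a mean correlation of 0.848 with its group against 0.907 to 0.945 for the rest of KO and 0.949 to 0.970 in WT. The muscle miRNAs used as a check of the tissue, miR-1 (miR-1a in the table), miR-133a, miR-133b and miR-206, summed to 81000 to 93229 in WT and 78874 to 105680 in KO.

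miR-148a was lower in KO, and in 5 of the 6 KO mice it lay below every WT mouse. Its normalized intensity was 116, 189, 136, 71, 148 and 153 in WT1 to WT6. It was 52, 11, 43, 42, 25 and 162 in KO1 to KO6. KO6 lay among the WT samples at 120% of the WT mean, whereas KO2, at 11, was below the median miRNA of its own sample and had 8.12% of the WT mean. The WT mean was 135.5 ± 39.7 and the KO mean 55.8 ± 54.0 (SD, n = 6 each). The log2 change, KO minus WT, was -1.69 (standard error 0.501), the largest fall of the 370 miRNAs fitted, and it was -1.77 without KO1.

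The size of this fall depended on KO2 and KO6. Without KO2 the log2 change of miR-148a was -1.32, and without KO6 it was -2.10. Leaving out any other sample gave a log2 change between -1.87 and -1.56. The ratio of mean intensities, in which the bright KO6 weighs more, was 0.412, against 0.309 for the ratio of geometric means. By the ratio of mean intensities miR-148a came after miR-181b, which had a ratio of 0.400. miR-181b was also next after miR-148a in the order of log2 changes, at -1.32 (standard error 0.231). With a pseudocount of 50 added to all intensities, the log2 change of miR-148a was -0.90 and it ranked 4 among the falls. With no filter it ranked 2.

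miR-152 was the bright member, and it was lower in KO by a smaller factor. Its intensity was 2237, 1818, 1960, 1856, 1766 and 2347 in WT1 to WT6, with a mean of 1997 ± 239 (SD, n = 6). It was 1836, 700, 1233, 1433, 888 and 1688 in KO1 to KO6, with a mean of 1296 ± 445 (SD, n = 6). KO2 to KO6 lay below every WT sample, while KO1 lay within the WT range. The log2 change of miR-152 was -0.70 (standard error 0.246), rank 33 among the falls, and the ratio of means was 0.649. It ran from -0.81 without KO1 to -0.53 without KO2. Its neighbours in the order of log2 changes were miR-3963 at -0.70 and miR-139-5p at -0.68.

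miR-148b was dim in every mouse, and no change could be read from it. Its intensity was 6, 11, 14, 11, 11 and 8 in WT1 to WT6 and 7, 4, 6, 10, 8 and 25 in KO1 to KO6. All of these values except WT3 and KO6 lay below the median miRNA of their sample, and none reached 32. The WT mean was 10.2 ± 2.79 and the KO mean 10 ± 7.62 (SD, n = 6 each). miR-148b was left out of the fit for its low intensity. The difference of its mean log2 intensities, KO minus WT, was -0.24 with an unpooled standard error of 0.405, and it was -0.55 without KO6 and -0.02 without KO2. Since probes differ in how brightly they bind their miRNA, the order miR-152, miR-148a, miR-148b describes the brightness of the probes and not the abundance of the miRNAs.

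**Figure D1:**
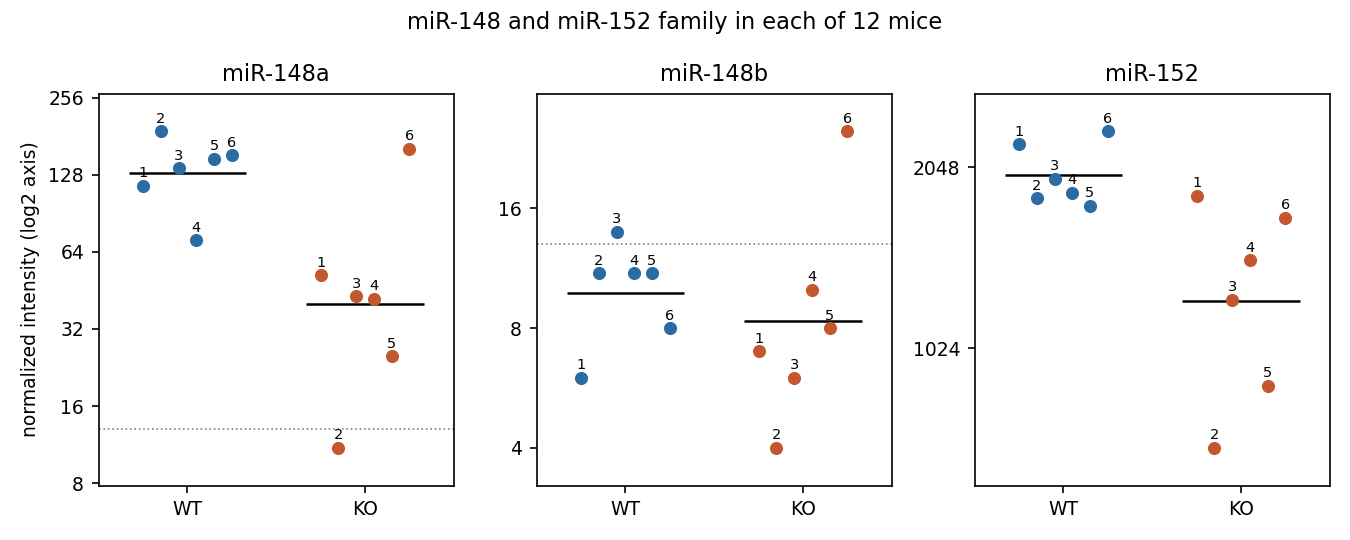
Normalized intensity of miR-148a, miR-148b and miR-152 (log2 axis, no unit, a separate scale for each panel) in the 6 WT and 6 KO mice; each point is a mouse with its number, the bars are geometric means, and the dotted line, below the range of the last panel, is the median over the samples of the median miRNA, 13. For miR-148a, KO1 to KO5 lie at 11 to 52, below the WT samples at 71 to 189, and KO6 lies at 162.

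Of all 370 miRNAs, 9.73% were lower in KO at the unadjusted limma threshold of 0.05 and 0.27% after Benjamini-Hochberg adjustment, and 9.73% and 1.08% were higher. Calls of the members themselves are not given, because the family was chosen on the same contrast.

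The spread of miR-148a between mice was set beside that of the 120 fitted miRNAs, itself included, with a mean intensity within a factor of 2 of its own. Its SD on the log2 scale was 0.485 in WT, near the median of 0.487 for these miRNAs. It was 1.28 in KO against a median of 0.740. miR-152 was tighter than most in WT, with an SD of 0.169 against a median of 0.361 for the 73 miRNAs of like brightness. In KO its SD of 0.543 was close to the median of 0.526.

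**Figure D2:**
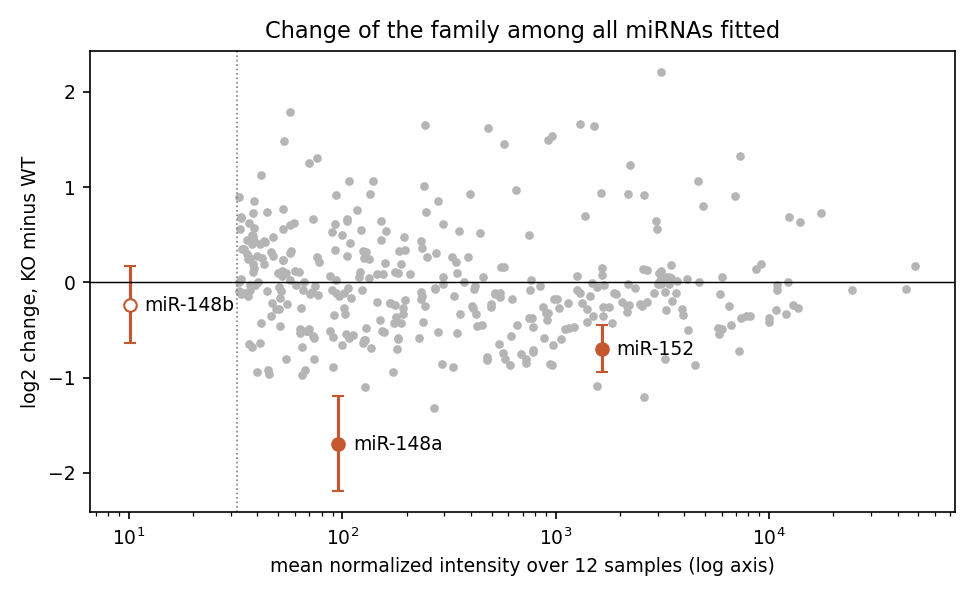
Log2 change, KO minus WT, against mean normalized intensity over 12 samples (log axis), with a grey point for each other miRNA fitted and the family in orange; bars are standard errors (limma for the filled points, unpooled for the open point), and the dotted line is the filter at 32. miR-148a, at -1.69, is the lowest point, miR-152 lies at -0.70, and miR-148b, drawn open, is left of the filter and was not fitted.

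Among the KO mice, miR-148a and miR-152 were low and high in nearly the same animals. KO2 was lowest and KO5 next lowest on both, and KO1 and KO6 were the highest pair on both, in opposite order. The relation between members was examined within each genotype, which does not use the difference between genotypes. In KO, miR-148a and miR-152 had a Pearson r of 0.862 (two-sided exact permutation p = 0.0236, n = 6) and a Spearman coefficient of 0.886 (exact permutation p = 0.0333). Adjusted over the 6 correlations computed, these p-values were 0.113 and 0.200, past no threshold. Without KO2 and KO6, the samples farthest from the median of miR-148a, r was 0.947 over 4 samples. On linear intensities r was 0.647 (exact permutation p = 0.128, n = 6). In KO on the log2 scale, 15 of the 368 other miRNAs fitted had a higher r with miR-148a than miR-152 had. In WT the same pair had an r of 0.03 (exact permutation p = 0.957, n = 6) and a Spearman coefficient of -0.14 (exact permutation p = 0.803), with adjusted p-values of 0.957 and 0.963, and without WT2 and WT4 r was -0.23. After quantile normalization the WT value of r was 0.569, and after median centring it was 0.417. Whether the correlations of the genotypes differ was not tested.

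The pairs with miR-148b were not stable. In KO, miR-148a and miR-148b had an r of 0.891 (exact permutation p = 0.0375, adjusted p = 0.113, n = 6) and a Spearman coefficient of 0.543 (exact permutation p = 0.297, adjusted p = 0.525). Without KO2 and KO6 that r was -0.24, so that it rested on those samples. In WT this pair had an r of 0.05 (exact permutation p = 0.908, adjusted p = 0.957, n = 6) and a Spearman coefficient of 0.03 (exact permutation p = 1). Without WT2 and WT4 its r was 0.48. miR-148b and miR-152 had an r of 0.628 in KO (exact permutation p = 0.181, adjusted p = 0.271, n = 6) and -0.73 in WT (exact permutation p = 0.0917, adjusted p = 0.183, n = 6). The Spearman coefficient of that pair was 0.543 in KO (exact permutation p = 0.297) and -0.52 in WT (exact permutation p = 0.350), and without the 2 farthest samples r was -0.04 and 0.886.

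**Figure D3:**
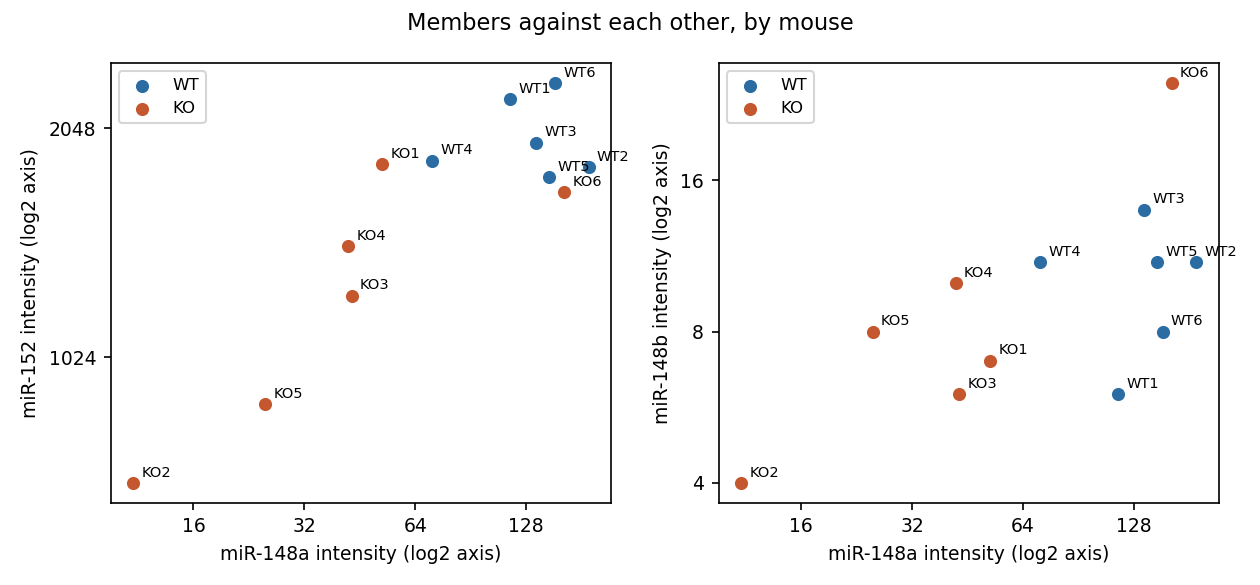
Intensity of miR-152 (left) and of miR-148b (right) against miR-148a in the same mouse, on log2 axes, for 6 WT and 6 KO mice. In the left panel the KO points run from KO2 (11 and 700) to KO6 (162 and 1688), with KO1 highest on miR-152 (52 and 1836). The WT points show no order there (r of 0.03). In the right panel the order in KO rests on KO2 and KO6.

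The same ends were counted over all miRNAs fitted. An even split over the KO samples would put KO2 lowest on 1 in 6 and KO6 highest on 1 in 6, and both together on fewer. KO2 was the lowest of the KO samples on 74 of the 370 miRNAs (20%), KO6 was the highest on 74 (20%), and both held for 34 (9.19%), of which miR-148a was 1. Measured by the correlation of deviations from the group means over the 12 samples, the miRNAs most like miR-148a were miR-5115 (r of 0.892), miR-106a (0.870) and miR-139-5p (0.865), out of 368 outside the family. The genotypes differed in other ways on these miRNAs, since miR-5115 had a log2 change of 1.07, miR-106a of -0.51 and miR-139-5p of -0.68. By the correlation of deviations, miR-152 had an r of 0.773 with miR-148a, and 8 miRNAs had a higher one.

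Most like miR-152 were miR-16 (r of 0.884), miR-146a (0.848) and miR-342-3p (0.841). miR-16, which restrains cyclins, had a log2 change of -1.09. miR-146a and miR-342-3p had log2 changes of -0.33 and -0.48. For miR-148b they were miR-379* (0.894), miR-3963 (0.855) and miR-196a (0.851), with log2 changes of -0.06, -0.70 and -0.42. These likenesses are descriptions over 12 samples that share a normalization.

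The whole muscle held cell types other than muscle fibres, and in such bulk samples fewer cells of a type and less RNA per cell cannot be told apart. The endothelial marker miR-126-3p was at 2230 to 4741 in WT (median 3750.5) and 760 to 2705 in KO (median 1430.5), with a difference of -1.20 on the log2 scale (standard error 0.313, limma adjusted p = 0.0615). In KO its lowest sample was KO2 and its highest KO6, the same ends as for miR-148a. The other endothelial marker, miR-126-5p, was at 1 to 6 in all samples. The erythroid marker miR-451 was at 43 to 417 in WT and at 16 to 318 in KO, with KO2 again lowest, and differed by -0.94 on the log2 scale (standard error 0.693, limma adjusted p = 0.497). miR-144, the other erythroid marker, was at 0 to 6. The part of endothelial or blood cells in the fall of miR-148a was not tested.

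Markers of other cell types were mostly near the lowest signal. The 4 leukocyte markers (miR-142-3p, miR-142-5p, miR-223 and miR-150) summed to 31 to 62 in WT and 33 to 63 in KO, the liver marker miR-122 was at 2 to 16 in all samples, and none of them passed the filter. The neuronal miR-124 and miR-9 summed to 5 to 17 in WT and 6 to 38 in KO, the highest in KO2. The 5 epithelial markers (miR-200a, miR-200b, miR-200c, miR-203 and miR-205) summed to 10 to 39 and 11 to 35. Of the smooth muscle markers, miR-143 had a log2 change of -0.02 and miR-145 of -0.60, and their limma adjusted p was 0.977 and 0.261.

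The passenger strands of the family, which come from the other arm of the same hairpins, were all too dim to be fitted. miR-148a* had an intensity of 5 to 14 in WT and 5 to 12 in KO, which shows no counterpart to the fall of miR-148a that could be read at this signal. miR-152* was at 4 to 10 in WT and 1 to 9 in KO. miR-148b* was at 3 to 11 in all samples except KO2, where it was at 155, while miR-148b itself was at 4 in that mouse.

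A further group of miRNAs carries the letters of the family's seed shifted by 1 base, at bases 1 to 7. RefSeq had 7 such mature miRNAs, of which 4 were on the array. The members above the filter are shown here, with the shared letters in capitals.
miR-130a: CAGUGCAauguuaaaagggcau
miR-130b: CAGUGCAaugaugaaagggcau

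The intensity of miR-130a averaged 528.5 ± 109 (SD, n = 6) in WT mice and 464.8 ± 131 (SD, n = 6) in KO mice, with KO2 lowest at 204 and the other KO samples at 485 to 565. It differed by -0.23 on the log2 scale (standard error 0.267, limma adjusted p = 0.710). miR-130b differed by -0.27 (standard error 0.330, limma adjusted p = 0.720), and its KO values of 113 to 424 spanned its WT values of 135 to 332. The list used for this group held these 4 and miR-301b, which the search did not find. Of its 5 miRNAs, 2 were fitted and 0 passed the unadjusted threshold in either direction. miR-301a, miR-301b and miR-721 were at 0 to 18 in all samples.

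A further list held miRNAs with a known role in the proliferation or differentiation of myoblasts, the process in which miR-148a has been placed. Of 14 listed, 13 were in the table and 12 were fitted. The median log2 change of these 12 was -0.34, against -0.08 for all miRNAs fitted, and 11 of 12 had a negative log2 change, as had 210 of 370. This comparison was not matched in brightness. Of the 73 miRNAs of like brightness to miR-152, itself included, 51 had a negative log2 change, with a median of -0.15. The list was chosen with earlier results of these data known, so its counts are a description and not a test of the list. At the unadjusted threshold 3 of the 12 fitted were lower (miR-27b, miR-181a and miR-503) and 0 higher. Of all miRNAs 9.73% were lower, and 0 of the list passed after adjustment. miR-181a, which targets a homeobox repressor of differentiation, differed by -0.71 on the log2 scale (standard error 0.237, limma adjusted p = 0.121). miR-27b, which targets Pax3 in muscle progenitors, had -0.87 (standard error 0.309, adjusted p = 0.127), and miR-503, which lowers Cdc25A, had -0.51 (standard error 0.237, adjusted p = 0.251). The muscle miRNAs miR-1a and miR-206, which are the most muscle-restricted of the list with miR-133, had log2 changes of 0.17 and -0.08 (adjusted p = 0.685 and 0.855 from limma). miR-133a and miR-133b had log2 changes of -0.35 and -0.38 (adjusted p = 0.493 and 0.476 from limma). miR-499 was at 3 to 30 and was not fitted.

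miR-148a also belongs to the miRNAs known to control cholesterol handling and the LDL receptor. Of 8 other miRNAs listed for this role, 5 were fitted, with a median log2 change of -0.49, against -0.08 for all miRNAs fitted. This list, too, was chosen with earlier results of these data known and was not matched in brightness. Its values are a description and not a test of the list. At the unadjusted threshold 3 of the 5 fitted were lower, where 9.73% of all miRNAs were, 0 were higher, and 0 passed after adjustment. The 3 were miR-27a at -0.89 (standard error 0.308, limma adjusted p = 0.127), miR-27b, counted above as well, and miR-128 at -0.49 (standard error 0.212, adjusted p = 0.220). Among the KO samples miR-27a and miR-27b were both lowest in KO2 and highest in KO6. How far their probes bind each other's miRNA was not tested. miR-185 had a log2 change of -0.33 (adjusted p = 0.685 from limma). miR-33, which lies in the Srebf2 gene and lowers cholesterol export, was at 1 to 10 in all samples and was not fitted.

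miR-29a, miR-29b and miR-29c, which hold down the DNA methyltransferases that act beside Dnmt1, were at 0 to 41 in all samples, and none was fitted. A change of that family was therefore not detectable on these arrays.

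**Figure D4:**
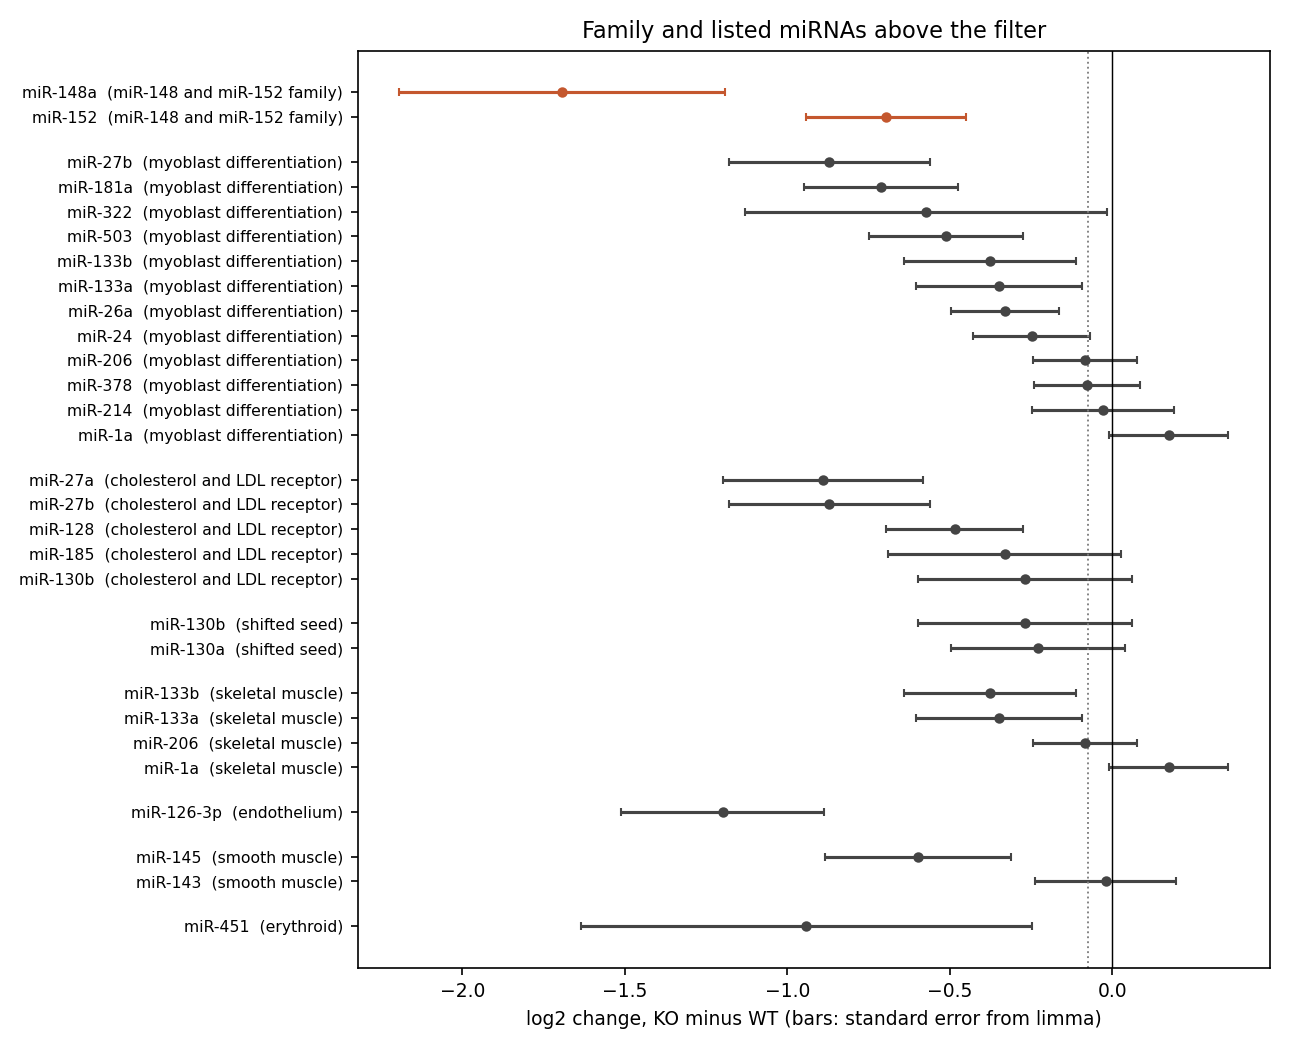
Log2 change, KO minus WT, of the fitted members of the family (orange) and of the fitted miRNAs of each list (dark grey), with standard errors from limma; the dotted line is the median of all 370 miRNAs, -0.08. miR-148a lies at -1.69, miR-126-3p at -1.20, and the muscle miRNAs between -0.38 and 0.17.

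The log2 changes of miR-148a and miR-152 were negative under each setting that gave them a value. With all 12 samples they ran from -1.94 with a weight for each array to -0.90 with a pseudocount of 50 for miR-148a, and from -0.77 with array weights to -0.59 after cyclic loess for miR-152. With a sample left out they ran from -2.10 to -1.32 and from -0.81 to -0.53. For miR-148b, a floor of 32 raised all 12 values to the floor and gave a difference of 0.

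**Figure D5:**
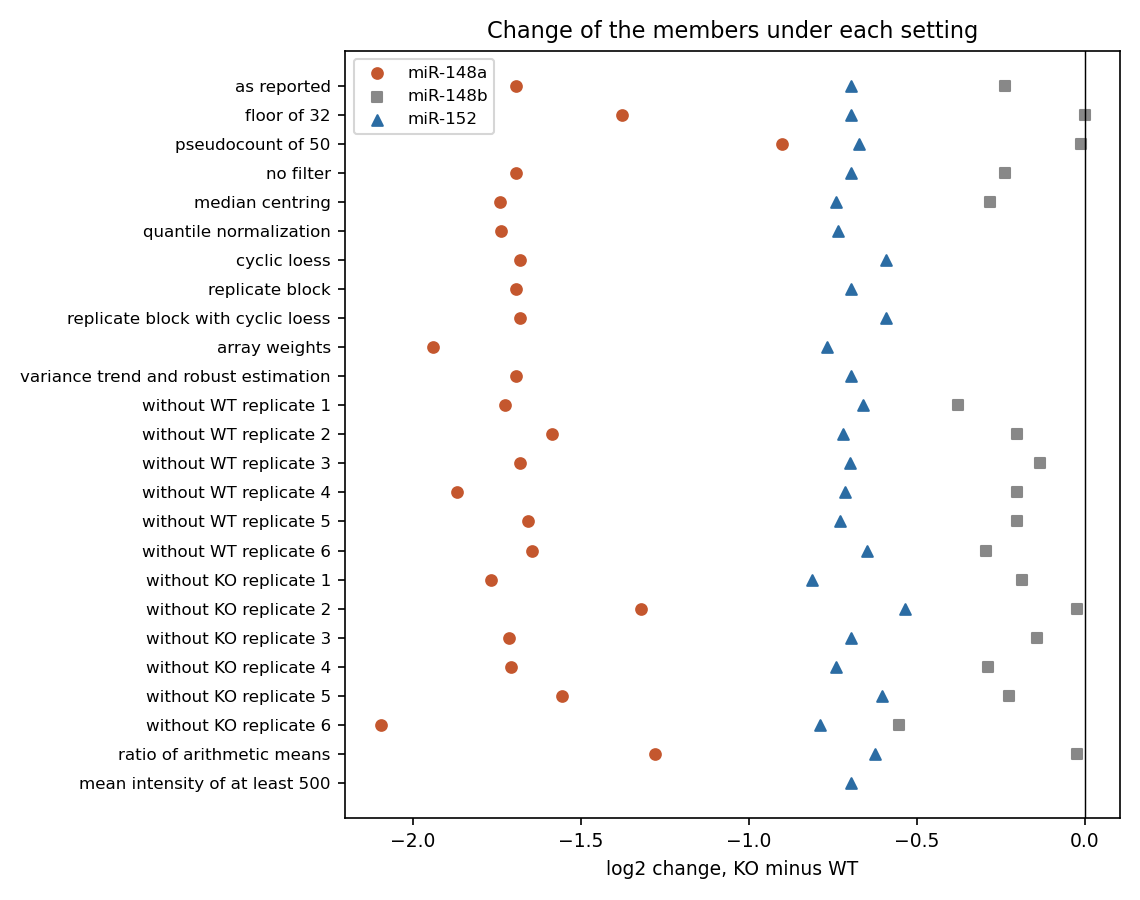
Log2 change, KO minus WT, of miR-148a (circles), miR-152 (triangles) and miR-148b (squares) as reported and under each other setting, with samples left out in turn. miR-148a lies between -2.10 and -0.90, miR-152 between -0.81 and -0.53, and miR-148b between -0.55 and 0. A missing marker of miR-148a means that it was below the filter of that fit. For miR-148b, a missing marker means that no difference of its mean log2 intensities was computed for that setting.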

How the data were processed

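Total RNA of quadriceps from 6 WT and 6 KO mice was hybridized by the authors' provider to an array for mouse miRBase version 17. The authors deposited normalized intensities, linear and in whole numbers, for 1096 miRNA names. The normalization method, background correction and treatment of repeated spots are not given in the sources used here, and the authors' test for the miRNAs is not named there. Groups came from the sample titles. Precision is limited by the number of samples, 6 per group.

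Values under 1 were raised to 1, converted to log2 and fitted with limma 3.58.1 (lmFit, eBayes, two-sided) in R 4.3.3 over the 370 miRNAs whose intensity averaged 32 or more, with Benjamini-Hochberg adjustment over all of them and a threshold of 0.05. No p-value is given for a member. Correlations between members used exact permutation of the 720 pairings (scipy 1.17.1). The fit was tested on simulated data, drawn independently for each miRNA with the same spread in both genotypes. That setting does not cover an unequal spread, as for miR-148a, or miRNAs that vary together between mice. Sequences and hosts came from RefSeq, GRCm38.p6. Plots were drawn with matplotlib 3.10.9.

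The members and lists were chosen with earlier results of these data known. Named miRNAs are the members, their passenger strands, the listed miRNAs, those beside each fitted member in the order of log2 changes, and the 3 most like each member. miR-181b and miR-126-3p were named by these rules. miR-1 was read as miR-1a, and miR-486 was not used here. Alternatives were floors, pseudocounts, filters, other normalizations, weights, a variance trend, a plain t-test, ratios of arithmetic means, the replicate number as a block and leaving out each sample.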

Additional observations from a re-analysis of the deposited data

Results flagged for a closer look

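The 3 members and their 3 passenger strands were examined in each genotype for a sample far from the other 5, by Dixon's 95% criterion on the log2 scale. Chance gives this in about 1 of 20 groups, or 0.6 of the 12 examined, and it was found in 2. Both concern miR-148b*, which was too dim for the fit. In KO it was at 155 in KO2 and at 3 to 11 in the other samples. In WT it was at 3 in WT1 and at 8 to 11 in the others. None of the members had such a sample. The cause of either value was not tested.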

How the results depend on the processing

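The members kept the direction of their log2 change under every setting that gave them a value, except miR-148b at 0 with a floor of 32. The filter at 500 left miR-148a out. The correlation of miR-148a and miR-152 in WT, 0.03 as reported, depended on the normalization. It was -0.0409 on linear intensities, 0.011 after cyclic loess, 0.417 after median centring and 0.569 after quantile normalization. The cause was not tested.

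Over all miRNAs, 72 passed the unadjusted threshold. Without a filter this count was 123, among miRNAs averaging 500 or more it was 45, and with array weights it was 156. Leaving out a sample gave 57 to 106. The adjusted count was 5. Array weights raised it to 115, the filter at 500 to 21, and a variance trend and a pseudocount of 50 to 14 each. Cyclic loess gave 11 (10 of them higher in KO, against 4 of the 5), quantile normalization 8, and no filter left 1 miRNA. Leaving out KO1 gave 49, WT4 11, KO4 8, and either WT3 or KO2 gave 3. A plain t-test on log2 values called 72 and 4. Filters change the number tested; otherwise the cause was not tested.

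With the replicate number as a block, 89 miRNAs passed the unadjusted and 4 the adjusted threshold, and the log2 changes of miR-148a and miR-152 stayed at -1.69 and -0.70. The correlation of same-numbered samples ran from -0.45 to 0.594, and 2 of 6 WT samples correlated best with their own number. The numbers were therefore not taken as pairs. The paper describes 6 pairs of KO mice and WT littermates, and this check cannot tell whether same-numbered samples are such pairs. Whether a WT and a KO sample shared an array is not given in the sources used here. Both the dim miR-148b and the passenger strands lie near the lowest signal of the arrays, which limits any reading of them.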
